A study of Rattus norvegicus with 34 samples.

Results

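Transport of solutes and water along the kidney tubule was followed through 40 genes, 22 of the proximal tubule, 3 of the loop of Henle, 5 of the distal tubule, 8 of the collecting duct and 2 of the sodium pump, which all segments use. The genes were chosen by name, with earlier results of these data known. Their probe sets were those annotated to these symbols on an Affymetrix rat expression array. Of the 40 genes 38 had a probe set among the 14217 named genes, 55 probe sets in all. The neutral amino acid carrier Slc6a19 and the magnesium channel Trpm6 were not analysed here.

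The series held 34 samples, each on 1 array. Male Wistar-derived rats of 7 to 9 weeks and 190 to 240 g received monuron, a phenylurea herbicide, in corn oil (40 mg/kg on day 1, then 400 mg/kg on days 2 and 3) or corn oil alone (5 ml/kg), and 4 kidneys and 4 livers of each group were profiled. NRK-52E cells, an epithelial line from rat kidney that the labels call proximal tubule, were kept for 6, 24 or 72 h with monuron or with the vehicle, 0.1% DMSO, and each of these 6 conditions had 3 arrays. The labels give the tissue a time of 72 h, while the protocol has the rats killed that long after their final dose. For the cells the protocol names chlorothalonil where the sample labels say monuron, so the compound on the cells is in doubt, and the text keeps the labels' name for it. The labels do not state which portion of the kidney was extracted, or that a replicate number marks the same rat in both organs. Arrays have no read depth, and their number limits the precision.

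The nephron recovers what the glomerulus filters. The proximal tubule takes back glucose, amino acids, phosphate, sulfate, bicarbonate and most of the water, through carriers of its brush border that are driven by the sodium gradient. The sodium pump on the opposite face of the cells keeps that gradient. The thick limb of the loop takes up salt without water, the distal tubule recovers sodium chloride, calcium and magnesium, and the collecting duct sets the final water, urea, sodium and acid of the urine under the control of vasopressin and aldosterone.

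All values below are log2 expression as the authors deposited it, and all differences are log2 differences, of monuron minus control (in cells, minus DMSO of the same time) unless stated. A gene counts as changed if its Benjamini-Hochberg adjusted p, over all genes tested in that comparison with limma, was below 0.05. A value above the median of its own array (3.89 to 3.94 on the kidney arrays) is taken as a measured signal, and values below it lie near the background. Levels of different genes are not set against each other, because each probe set has a response of its own. In whole tissue, fewer cells of a type and less RNA per cell cannot be told apart.

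Other genes moved in ways that bear on the labels of the kidney and liver arrays. Havcr1, the injury marker KIM-1 of the proximal tubule, lay at 2.01 to 2.05 in the 4 monuron kidneys, which is background, against 5.98 to 8.11 in the 4 control kidneys (difference -4.96, SE 0.38, adjusted p = 0.000264). Of 7 proliferation genes tested 7 fell and 0 rose, where 6.34% of all genes tested in kidney fell and 3.87% rose. The 8 listed had a mean level of 3.84 to 5.12 in monuron kidneys and 6.36 to 7.33 in control kidneys. Of 11 tubule injury genes tested 3 fell and 0 rose. The 12 listed had a mean level of 6.39 to 6.91 in monuron kidneys and 7.20 to 7.77 in control kidneys. Nqo1, an oxidant defence gene chosen here after its values were seen, was lower by 2.93 in monuron kidneys (adjusted p = 0.000922). In the livers Cyp1a1, an enzyme induced through the aryl hydrocarbon receptor, averaged 4.27 ± 1.69 with monuron and 8.98 ± 0.56 in controls (SD, n = 4 each; difference -4.71, adjusted p = 0.0196), and Nqo1 differed by -1.59 (adjusted p = 0.0466). Cyp1a1, like Nqo1, was chosen after its values were seen, and the proliferation and injury lists were chosen with earlier results of these data known. The kidney and liver directions below, and the signs of kidney minus liver, follow these labels, and the part of these changes in the results on transport genes was not tested.

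In kidney 36 of the 38 measured transport genes lay high enough to be tested, and 3 of these 36 changed. Slc6a18 and Slc3a1, which serve amino acid recovery in the proximal tubule, rose to 1.95 and 1.31 times their control level, and the phosphate carrier gene Slc20a1 was 1.80-fold lower in monuron kidneys. The share of 8.33% stood beside 10.2% of the 9542 genes tested in kidney, so that transport genes changed about as often as genes in general. By direction 2 rose and 1 fell, where 3.87% of all genes rose and 6.34% fell. The median difference of the 36 genes was 0.09, with 26 differences above 0 and 10 below, and that of all genes was -0.08. Among the 36, only in these 3 genes did the 4 monuron and the 4 control kidneys not overlap. The share of all genes tested whose groups did not overlap was not computed.

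**Figure D1:**
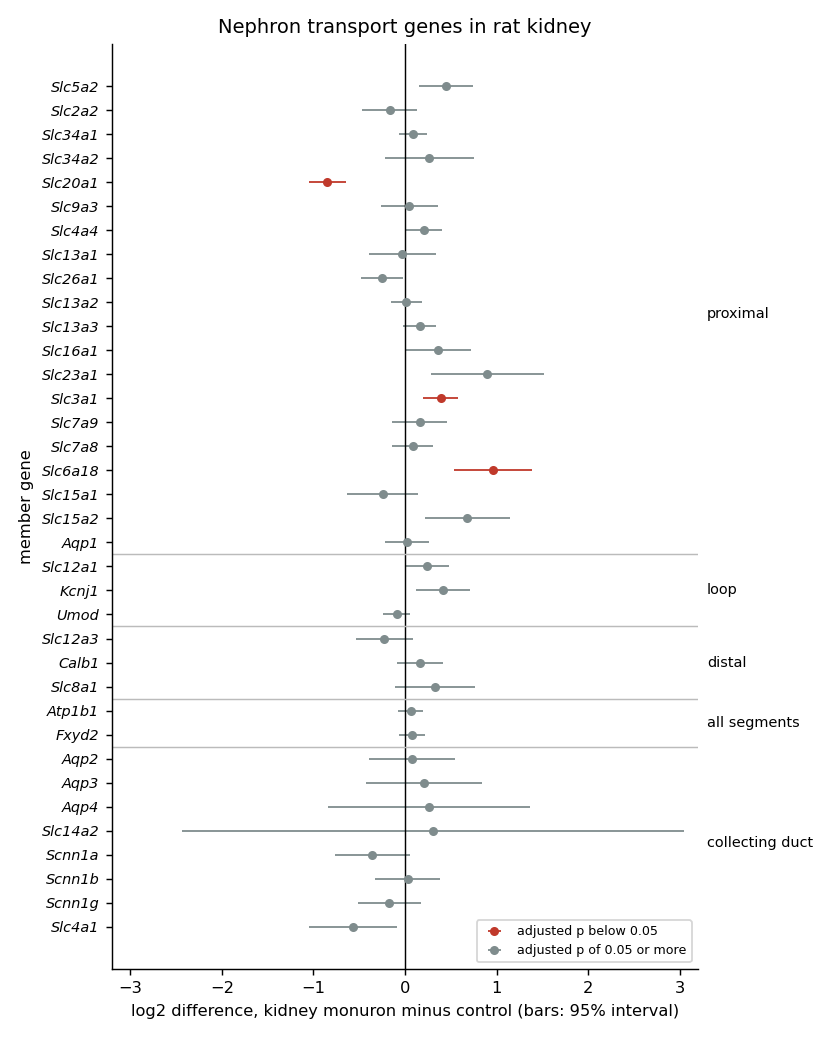
Differences between monuron and control kidneys for the 36 transport genes tested, by tubule segment. Points are log2 differences of monuron minus control (4 rats each) and bars are 95% intervals. The 3 genes past the threshold, Slc6a18 (0.96), Slc3a1 (0.39) and Slc20a1 (-0.85), all belong to the proximal tubule, and the interval of Slc14a2 in the collecting duct runs from -2.43 to 3.05.

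Amino acid and peptide carriers of the proximal tubule included both genes that rose. Slc6a18, the neutral amino acid cotransporter B0AT3 of the brush border, was at 11.08, 11.21, 11.31 and 11.74 in monuron kidneys, against 10.55, 10.76, 10.29 and 9.90 in control kidneys. Every monuron kidney lay above every control kidney, and the difference was 0.96 (SE 0.19, adjusted p = 0.0161). Slc3a1, which encodes rBAT, the heavy chain of the carrier that recovers cystine and dibasic amino acids, was at 15.49, 15.54, 15.57 and 15.66 in monuron kidneys, against 15.18, 15.43, 15.06 and 15.03 in control kidneys. Again the groups did not overlap, with a smaller difference of 0.39 (SE 0.086, adjusted p = 0.0230). Both calls depended on single rats. Without control rat 3 the adjusted p was 0.0559 for Slc6a18 and 0.0780 for Slc3a1, and Slc3a1 was also lost without monuron rat 3 (0.0654) or control rat 4 (0.0542).

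The light chain that pairs with rBAT did not follow it past the threshold. Slc7a9, which encodes this partner, b0,+AT, averaged 12.78 ± 0.21 in monuron and 12.62 ± 0.25 in control kidneys (SD, n = 4 each; difference 0.16, 95% interval -0.14 to 0.46). Slc7a8, the exchanger LAT2 that passes neutral amino acids on to the blood, differed by 0.08 (interval -0.14 to 0.30). The peptide carriers lay on either side of 0. Slc15a2, the high-affinity peptide transporter PEPT2, was at 11.17, 11.17, 11.36 and 11.92 in monuron kidneys, against 10.86, 11.17, 10.47 and 10.40 in control kidneys, a difference of 0.68 (SE 0.21) that did not pass (adjusted p = 0.0638). The ranges met in 1 control rat, rat 2, without which the adjusted p was 0.0387. Slc15a1, the low-affinity PEPT1, differed by -0.24 (SE 0.17, adjusted p = 0.379).

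The 250 bases before the start of the 2 genes that rose are shown, since they changed together. The sequences are from RefSeq on build GRCr8, 5′ to 3′ on the strand of the gene, at chr1:31436403-31436652 (plus strand) for Slc6a18 and at chr6:15394750-15394999 (minus strand) for Slc3a1. Capitals mark matches, on either strand, to CAAAGTCCA, the HNF4-type motif, to TATAAA, the core promoter's TATA box, or to GTTAATNAT, the HNF1-type motif. Where matches to a motif overlap, only the first is in capitals. HNF4 and HNF1 are transcription factors of liver and proximal tubule.
Slc6a18: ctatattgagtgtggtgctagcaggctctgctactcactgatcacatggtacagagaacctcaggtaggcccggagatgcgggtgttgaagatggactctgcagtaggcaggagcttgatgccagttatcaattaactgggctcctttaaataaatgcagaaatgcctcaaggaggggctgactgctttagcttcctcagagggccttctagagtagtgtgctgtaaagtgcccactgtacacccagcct
Slc3a1: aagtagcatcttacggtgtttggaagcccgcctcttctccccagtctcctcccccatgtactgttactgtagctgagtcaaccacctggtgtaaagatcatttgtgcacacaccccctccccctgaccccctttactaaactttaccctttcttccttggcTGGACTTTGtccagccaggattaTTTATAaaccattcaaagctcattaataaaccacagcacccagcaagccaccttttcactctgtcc
Slc3a1 held the HNF4-type motif and the TATA motif, with the marked matches on the opposite strand, starting 89 and 66 bases before the gene. The marked TATA match overlaps a second one, TATAAA on the gene's own strand, which runs past the capitals. Slc6a18 held none of the 3. Among 33469 rat promoter windows of this length, 0.338% held the HNF4-type motif, 12.931% the TATA motif and 0.666% the HNF1-type motif. Windows were found for 34 of the 40 genes, of which 1, 9 and 0 held these motifs in the same order. A match is a description of the letters only.

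Phosphate carriers gave the clearest change of the set. Slc20a1 encodes PiT-1, a sodium-phosphate cotransporter found in many cell types besides the tubule, and was at 10.04, 9.73, 9.89 and 9.90 in monuron kidneys, against 10.68, 10.65, 10.95 and 10.68 in control kidneys. Every monuron kidney lay below every control kidney, and the gap between the groups was several times their SDs, 0.13 with monuron and 0.14 in controls. The difference was -0.85 (SE 0.09, adjusted p = 0.00116), and with each rat left out in turn it stayed between -0.90 and -0.78 with adjusted p of 0.00266 to 0.00596. Slc34a1, the main brush border phosphate carrier NaPi-IIa, averaged 15.44 ± 0.10 in monuron and 15.35 ± 0.09 in control kidneys (difference 0.09, interval -0.06 to 0.24). A second probe set of Slc34a1 differed by 0.54 (SE 0.18, adjusted p = 0.0886), so the probe sets disagree in size. Slc34a2, the relative NaPi-IIb that is best known from gut and lung, differed by 0.26 (SE 0.22, adjusted p = 0.450).

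**Figure D2:**
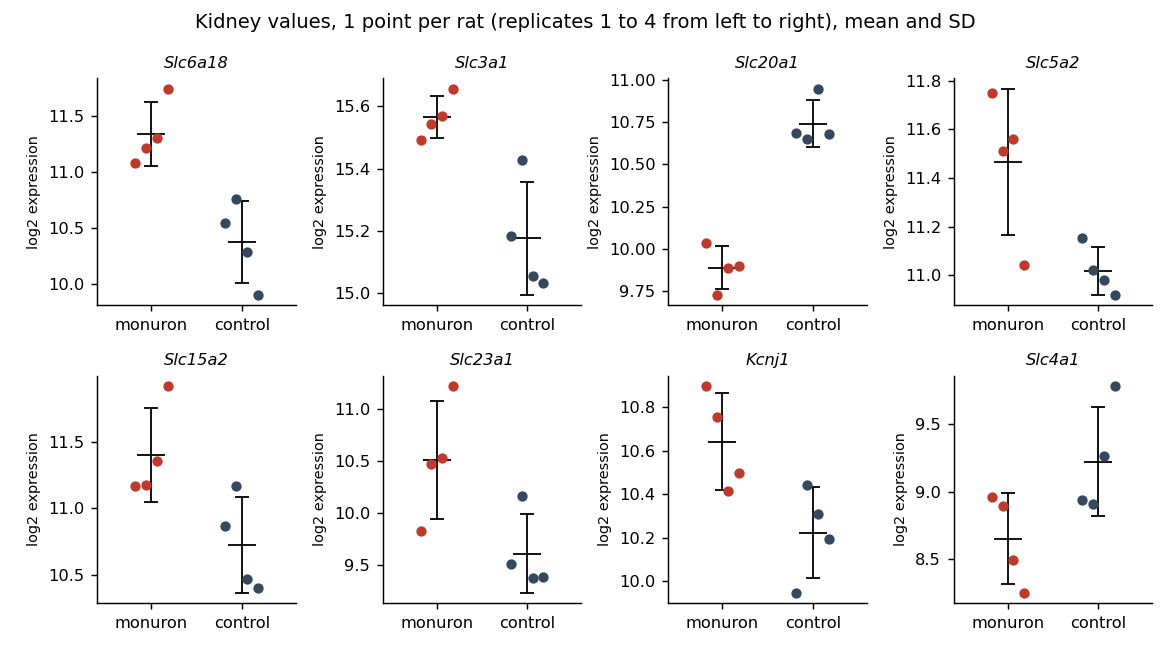
Log2 expression in each kidney for the 3 genes that changed and for 5 with adjusted p from 0.0613 to 0.118. Each point is 1 rat (4 with monuron, left, and 4 controls, right), and the bars are the mean and SD. The groups are apart for Slc6a18, Slc3a1 and Slc20a1, and 1 or more rats overlap in the other panels.

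The glucose carrier SGLT2 and the vitamin C carrier had positive differences with adjusted p just above the threshold. Slc5a2 encodes SGLT2, which recovers most of the filtered glucose, and was at 11.75, 11.51, 11.56 and 11.04 in monuron kidneys, against 11.15, 11.02, 10.98 and 10.92 in control kidneys. The difference of 0.45 (SE 0.13) did not pass (adjusted p = 0.0613). Monuron rat 4 lay within the control range, and without that rat the difference was 0.59 (adjusted p = 0.00599). Slc2a2, the GLUT2 carrier through which glucose leaves the cell, differed by -0.17 (interval -0.47 to 0.14), and Slc5a1, the carrier SGLT1 of the late proximal tubule, lay at 2.02 to 2.31 on all 8 arrays, below the array median. Slc23a1, the vitamin C carrier SVCT1, was at 9.83, 10.47, 10.53 and 11.21 in monuron kidneys, against 9.51, 10.16, 9.37 and 9.38 in control kidneys (difference 0.90, SE 0.27, adjusted p = 0.0642). It passed without monuron rat 1 (adjusted p = 0.0324) or control rat 2 (0.0430), the rats whose values overlap.

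The other proximal carriers had smaller differences. Slc16a1, the lactate carrier MCT1, differed by 0.36 (SE 0.16, adjusted p = 0.164), and the dicarboxylate carriers Slc13a3 (NaDC3) and Slc13a2 (NaDC1) by 0.16 and 0.02 (adjusted p = 0.209 and 0.912). Slc9a3, the sodium-hydrogen exchanger NHE3 that starts bicarbonate recovery, differed by 0.05 (interval -0.27 to 0.36). Slc4a4, the carrier NBCe1 that returns bicarbonate to the blood, was 14.02 ± 0.15 in monuron and 13.81 ± 0.13 in control kidneys (difference 0.20, adjusted p = 0.162). Its second probe set gave 0.52 (SE 0.17), and the mean of both 0.36 with an adjusted p of 0.0386, so the call on Slc4a4 depends on how probe sets are combined. The sulfate carriers Slc13a1 (NaS1) and Slc26a1 (SAT1) differed by -0.03 and -0.25 (adjusted p = 0.931 and 0.132). Aqp1, the water channel of the proximal tubule and thin limb, averaged 13.76 ± 0.17 in monuron and 13.73 ± 0.18 in control kidneys (interval of the difference -0.21 to 0.27).

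In the loop none of the 3 genes changed. Kcnj1, the potassium channel ROMK that recycles potassium for salt uptake, was at 10.90, 10.76, 10.41 and 10.50 in monuron kidneys, against 9.95, 10.44, 10.31 and 10.19 in control kidneys. The groups overlapped in 1 control value, and the difference of 0.42 (SE 0.13) gave an adjusted p of 0.0699. Slc12a1, the salt carrier NKCC2 on which loop diuretics act, differed by 0.24 (SE 0.11, adjusted p = 0.177). Umod, which encodes uromodulin, the main protein of normal urine, differed by -0.09 (interval -0.24 to 0.05).

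None of the 3 distal genes tested changed either. Slc12a3, the thiazide-sensitive salt carrier NCC, was at 11.10, 10.99, 11.02 and 11.00 in monuron kidneys, against 11.27, 10.78, 11.49 and 11.46 in control kidneys (difference -0.22, SE 0.14, adjusted p = 0.310). The monuron rats lay close together, and 1 control rat, rat 2, lay below them all, without which the difference was -0.38 (adjusted p = 0.0202). Calb1, the calcium-binding calbindin-D28k of these cells, differed by 0.17 (SE 0.11, adjusted p = 0.343). Slc8a1, the sodium-calcium exchanger NCX1 that moves calcium out to the blood, differed by 0.33 (SE 0.20, adjusted p = 0.285), and by 0.53 (0.0492) without control rat 1. Trpv5, the calcium channel of the luminal face, was at 2.56 to 2.64 on all 8 kidney arrays, below the array median, and was not tested.

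The sodium pump genes were the steadiest of the set. Atp1b1, the beta subunit, averaged 14.89 ± 0.10 in monuron and 14.83 ± 0.07 in control kidneys (interval of the difference -0.08 to 0.20). Its second probe set had the opposite sign (-0.10, SE 0.045, adjusted p = 0.170). Fxyd2, the gamma subunit, averaged 15.14 ± 0.06 in monuron and 15.06 ± 0.11 in control kidneys (interval -0.06 to 0.22). These are the 2 lowest pooled SDs among the 36 genes, 0.09 each.

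In the collecting duct 0 of 8 genes changed, and in its water and urea genes the rats differed more from each other than the group means did. Slc14a2, the urea transporter UT-A that lets urea into the inner medulla, was at 8.32, 9.20, 5.98 and 7.12 in monuron kidneys, against 3.31, 8.15, 8.42 and 9.49 in control kidneys. The lowest value, in control rat 1, lay under the array median, and the difference between groups was 0.31 with an SE of 1.22. Aqp4, a water channel of the basolateral membrane, was at 9.59, 9.49, 8.0 and 8.62 in monuron kidneys, against 7.48, 8.62, 8.67 and 9.87 in control kidneys. Aqp3, its companion on the same membrane, was at 11.64, 11.62, 11.07 and 11.07 in monuron kidneys, against 10.44, 10.92, 11.29 and 11.93 in control kidneys. Aqp2, the luminal channel that vasopressin inserts, was at 13.11, 12.95, 12.42 and 12.52 in monuron kidneys, against 12.36, 12.45, 12.65 and 13.23 in control kidneys. In all 4 of these genes control rat 1 was the lowest and control rat 4 the highest of the 8, and monuron rats 1 and 2 lay above monuron rats 3 and 4.

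This order of rats is a description, and no test was made of it. The median pooled SD within groups was 0.69 for the 4 water and urea genes, 0.27 for the 4 sodium and acid genes of the same segment, 0.22 for the 20 proximal genes and 0.18 for the 3 loop genes. Averaged over Slc14a2, Aqp2, Aqp3 and Aqp4 and set against the mean of the controls, monuron rats 1 to 4 stood at 0.71, 0.86, -0.59 and -0.12 and control rats 1 to 4 at -1.56, 0.08, 0.30 and 1.17. Fxyd4, a sodium pump partner of the collecting duct that is not among the 40 and was picked after its values were seen, put the same control rats lowest (8.49) and highest (11.05). Avpr2, the vasopressin receptor gene and also not among the 40, did so only among the controls (5.28 and 7.28). Over the 8 kidneys Avpr2 was lowest in monuron rat 3 (4.94) and highest in monuron rat 2 (7.31). Its monuron rats 1 (6.68) and 2 also lay above monuron rats 3 and 4 (5.59). The sodium channel did not share the order. Scnn1a, its alpha subunit, was highest in control rat 3 (8.26) and lowest in control rat 2 (7.31). Without control rats 1 and 4, a setting chosen after these values were seen, Slc20a1 was the only transport gene called, and Slc6a18 (adjusted p = 0.0828) and Slc3a1 (0.145) did not.

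**Figure D3:**
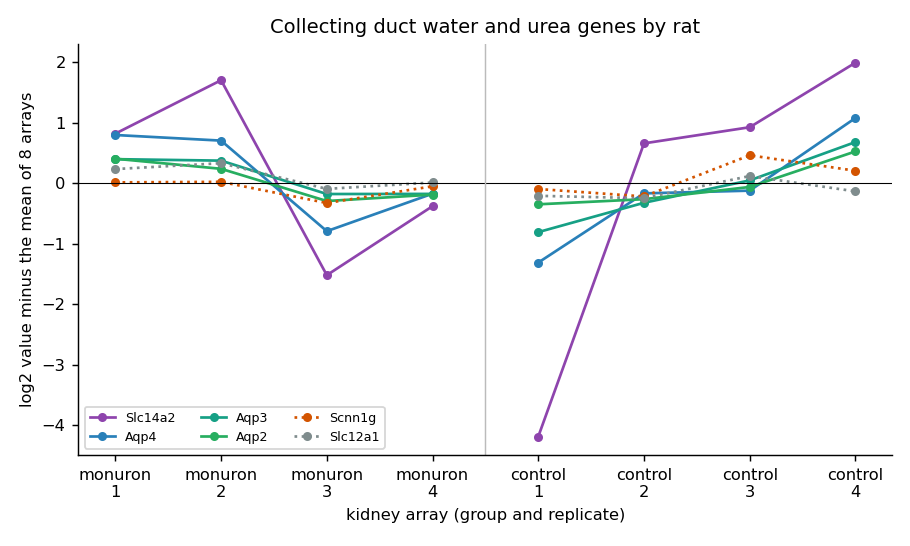
Log2 value of 6 genes in each kidney minus the gene's mean over the 8 arrays (monuron rats 1 to 4 left, control rats 1 to 4 right). Solid lines are the water and urea genes of the collecting duct, dotted lines Scnn1g and Slc12a1, and the lines only join values of a gene, since rats have no order. Control rat 1 is lowest and control rat 4 highest in all 4 solid lines, and the dotted lines stay within 0.5 of 0.

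Sodium and acid transport in the collecting duct gave differences of either sign. The 3 subunits of the epithelial sodium channel, the target of amiloride, differed by -0.36 for Scnn1a (SE 0.18, adjusted p = 0.221), 0.03 for Scnn1b (adjusted p = 0.924) and -0.17 for Scnn1g (adjusted p = 0.487). Scnn1a passed without control rat 2 (-0.53, adjusted p = 0.0465). Slc4a1, the anion exchanger AE1 of acid-secreting intercalated cells and of red cells, was at 8.96, 8.89, 8.50 and 8.25 in monuron kidneys, against 8.94, 8.91, 9.27 and 9.78 in control kidneys. The difference of -0.57 (SE 0.22) did not pass (adjusted p = 0.118), and the second probe set gave -0.56. The lowest and the highest kidney for Slc4a1, monuron rat 4 and control rat 4, were also the lowest and highest for Atp6v1b1 (8.33 and 9.36), a proton pump subunit of intercalated cells, and for Hsd11b2 (11.53 and 12.61), the glucocorticoid-inactivating enzyme of aldosterone target cells. Both genes were picked after their values were seen. Other collecting duct genes did not share both extremes. Fxyd4 was lowest in control rat 1 and Avpr2 in monuron rat 3, and the 3 sodium channel subunits were highest in control rat 3. The red cell genes Hbb (13.97) and Alas2 (5.80) were lowest in control rat 4, and 0 of the 3 red cell genes tested changed. The part of any cell type in the Slc4a1 values was not tested.

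Of the 33 tested kidney genes that did not pass, 28 had a 95% interval within 1 of 0 and 17 within 0.5, on the log2 scale. In simulated data of this size, with 100 genes changed, the same test found 93% of genes changed by 1 and 53% of those changed by 0.5. It also made 11 false calls at either size. These shares need not hold for the kidney data, where 974 genes were called. The pooled SDs of the transport genes ran from 0.09 to 2.18, so a single share does not describe each of them.

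Other genes of tubule transport and of the proximal tubule were counted beside these carriers, where 3.87% of all genes tested in kidney rose and 6.34% fell. Of 49 other tubule transporters and channels tested 1 rose, Clcn4, an endosomal chloride-proton exchanger (0.33, adjusted p = 0.0461), and 0 fell, with a median of -0.05. Of 28 regulators and partners of tubule transport 1 rose and 0 fell. This was Kl, which encodes klotho, the co-receptor for the phosphate-lowering hormone FGF23, at 8.78 ± 0.33 in monuron and 7.49 ± 0.70 in control kidneys (difference 1.29, SE 0.32, adjusted p = 0.0329). Of 11 further proximal tubule genes 4 rose and 0 fell, with a median of 0.29. They were Cubn and Lrp2, the receptors cubilin and megalin for filtered protein (1.01 and 0.63), the brush border peptidase Anpep (0.83) and the enzyme Acmsd (0.81), and the mean of all 11 was 13.04 to 13.19 in monuron kidneys and 12.73 to 12.83 in control kidneys. Their part in the differences of the carriers was not tested.

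In liver a water channel gene was higher and a sulfate carrier gene lower in the samples labelled monuron. Of the 38 transport genes 16 were tested there and 2 changed (12.5%), where 3.12% of the 9361 genes tested in liver did. Aqp1 was at 6.15, 6.69, 5.00 and 5.35 in monuron livers, against 3.68, 3.85, 3.32 and 3.92 in control livers, and 2 of the control values lay below the median of their array. The difference was 2.10 (SE 0.35, adjusted p = 0.0228). Aqp1 could be tested because all 4 monuron livers lay above the median, so the share of 12.5% is not read as an excess over all genes. The control values lay around the median, close to background, so the size of the difference is not reliable. The call was lost without monuron rat 1 or control rat 1, 2 or 4 (adjusted p of 0.0600 to 0.0788). The second probe set of Aqp1 lay below the array median in all 8 livers (means of 2.56 in monuron and 2.41 in control livers), so the change was seen by 1 of 2 probe sets. Slc26a1, which carries sulfate and oxalate in liver as well as kidney, was at 10.70, 10.97, 11.08 and 10.81 in monuron livers, against 11.41, 11.33, 11.31 and 11.46 in control livers (difference -0.49, SE 0.091, adjusted p = 0.0317). The groups did not overlap, but the call was lost without monuron rat 1 or 2 or control rat 1, 2 or 4 (adjusted p of 0.0541 to 0.102).

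The organs were then compared through their treatment differences. Of 36 transport genes 3 differed between kidney and liver (8.33%), where 2.68% of the 10114 genes tested did. Only 16 of the 36 were also tested in liver, and of the 3 genes Aqp1 and Slc13a3 are among them. The share of 8.33% is therefore not read as an excess over all genes. The difference for Aqp1 was 0.03 in kidney and 2.10 in liver (kidney minus liver -2.08, SE 0.38, adjusted p = 0.00707, and -0.98 with an adjusted p of 0.0440 on the mean of its probe sets). As its control livers lay close to background, the size of this contrast is not reliable either. For Slc13a3 it was 0.16 in kidney and -0.92 in liver, where its values were 6.92, 7.53, 6.88 and 7.57 with monuron and 7.85, 7.85, 8.47 and 8.40 in controls (kidney minus liver 1.08, SE 0.24, adjusted p = 0.0248). Slc13a3 was lost without kidney monuron rat 3 (adjusted p = 0.0538). Slc6a18, the remaining gene, had liver values of 2.16 to 2.23, below every array median, so that no treatment difference could be measured there and its value of 0.96 only restates the difference in kidney. Slc20a1, which fell in kidney, had a liver difference of -0.45 (SE 0.19, adjusted p = 0.183), and its organs did not differ by the test (kidney minus liver -0.40, interval -0.85 to 0.06).

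In NRK-52E cells most of the transport genes were not measured above background. Of the 38 genes 36 were above the array median on all arrays of the monuron kidneys and 35 in the control kidneys. In the cells 6 were at 6 h and at 24 h and 5 at 72 h, the same number with monuron and with DMSO, while 61.0% to 61.8% of all 14217 genes were. The 5 genes above the median on all 18 cell arrays were Slc20a1, Slc4a4, Slc16a1, Slc8a1 and Atp1b1, of which the first 3 were listed under the proximal tubule. A group of 30 genes lay below the median on every cell array, between 1.80 and 3.1. They included Slc34a1, Slc5a2, Slc9a3 and Slc3a1 of the brush border, all 3 loop genes and all 8 collecting duct genes. Of 11 further proximal tubule genes, Lrp2 and Cubn among them, 0 were above the median on all 18 arrays, and Ggt1 was on 16. Slc7a9 of the brush border was above the median on 12 of the 18. In cells that the labels give as proximal tubule, proximal transport genes were thus split between a few with a signal, Slc4a4 among them, and most at background.

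**Figure D4:**
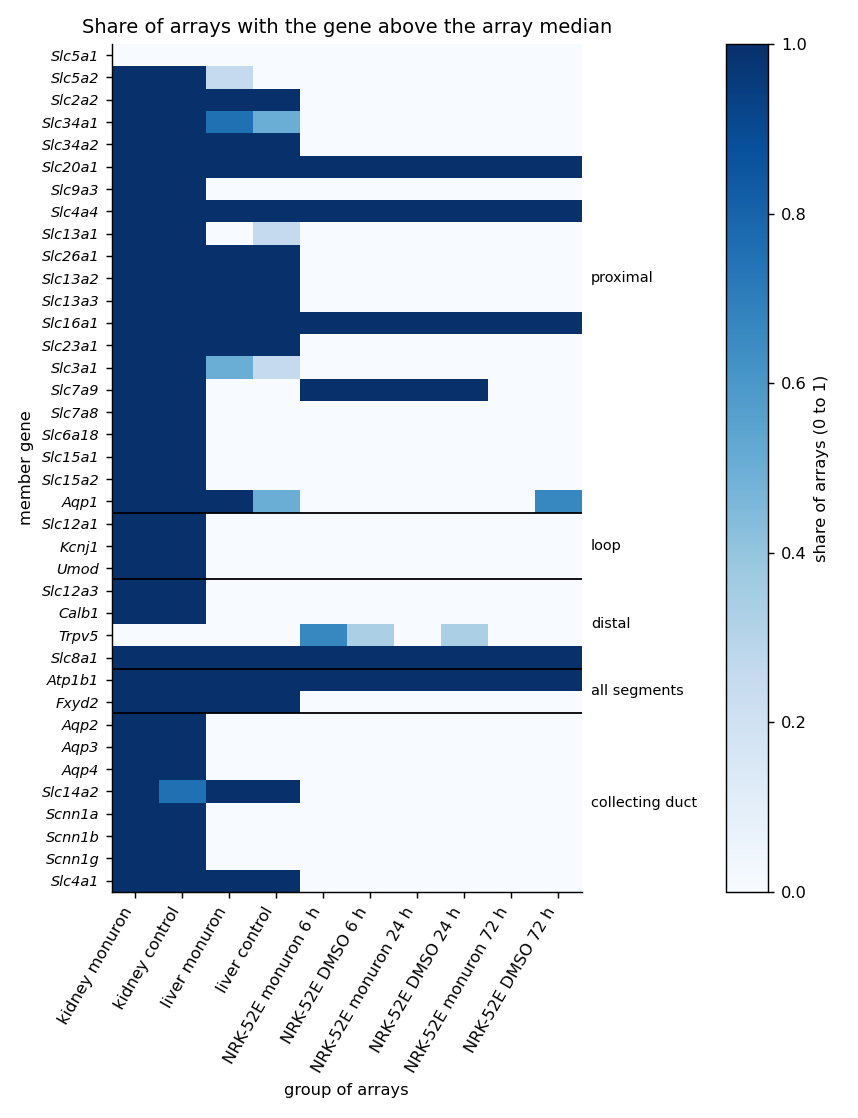
Share of arrays in each group (columns; 4 arrays for tissue, 3 for cells) on which each of the 38 transport genes (rows, by segment) lay above the array median, from 0 (white) to 1 (dark). Kidney columns are dark for 36 of 38 genes with monuron, and the NRK-52E columns are dark for 5 or 6.

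The labels call the cell arrays biological replicates without naming separate cultures, so the p-values measure the spread between these samples. In the cells 7 of the 38 transport genes were tested against DMSO at each time. At 6 h 0 of 7 changed (0 at an unadjusted p below 0.05), where 6.31% of 9042 genes did (571 genes, and 1030 with the replicate number within each time as a block, still 0 of the 7). At 24 h 0 of 7 changed (2 at an unadjusted p below 0.05), where 13.6% did. The nearest were Slc4a4, at 9.89, 9.94 and 10.08 with monuron against 9.57, 9.53 and 9.36 with DMSO (difference 0.49, SE 0.16, adjusted p = 0.0533), and Slc7a9, at 5.2, 4.25 and 5.10 with monuron against 5.52, 6.03 and 5.78 with DMSO (difference -0.93, SE 0.35, adjusted p = 0.0860). In both the groups were apart. The fit shares 1 estimate of the spread over all 18 arrays, and arrays of other times moved both results past the threshold. Slc4a4 passed without DMSO array 1 of 6 h (adjusted p = 0.0260), DMSO array 1 (0.0254) or 3 (0.0268) of 72 h or monuron array 3 of 72 h (0.0432), and Slc7a9 without DMSO array 3 of 72 h (0.0242). At 6 h the groups were apart in Slc16a1 alone among the 7 genes, at 11.30, 11.52 and 11.46 with monuron against 11.17, 11.28 and 11.18 with DMSO (difference 0.22, adjusted p = 0.369). How often groups were apart among all genes tested in the cells was not counted.

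At 72 h 3 of the 7 genes changed (42.9%), where 61.6% of all genes did. Slc20a1 was at 11.45, 11.41 and 11.71 with monuron, against 9.75, 10.16 and 11.22 with DMSO (difference 1.15, SE 0.24, adjusted p = 0.000629). Slc8a1 was at 7.24, 6.92 and 5.27 with monuron, against 8.55, 8.37 and 7.97 with DMSO (difference -1.82, SE 0.33, adjusted p = 0.000190). Atp1b1 was at 13.12, 13.03 and 12.87 with monuron, against 13.59, 13.59 and 13.31 with DMSO (difference -0.49, SE 0.08, adjusted p = 5.2e-05). Its second probe set fell further (-0.98, SE 0.17, adjusted p = 0.000137). The groups were apart in all 3 genes, and the third DMSO array lay nearest to the monuron arrays in each. With each array left out in turn these calls held, with differences of 0.83 to 1.57 for Slc20a1, -2.20 to -1.22 for Slc8a1 (the last without monuron array 3) and -0.58 to -0.42 for Atp1b1. The remaining genes Slc7a9, Trpv5 and Slc16a1 differed by -0.30, -0.20 and 0.01. Slc4a4 did not pass (0.32, adjusted p = 0.0924), but did without DMSO array 3 of 72 h (0.0276), monuron array 3 of 72 h (0.0473) or DMSO array 1 of 6 h (0.0452), or with arrays centred on their medians (0.0354).

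The 72 h differences were larger than those of 24 h in the same 3 genes. The treatment difference at 72 h minus that at 24 h was -1.76 for Slc8a1 (SE 0.47, adjusted p = 0.00796), -0.40 for Atp1b1 (SE 0.11, adjusted p = 0.00892) and 0.91 for Slc20a1 (SE 0.34, adjusted p = 0.0433), a comparison added after the data had been seen. That was 3 of 7 genes, where 37.9% of all genes differed. The call on Slc20a1 was lost in 15 of 18 fits that left out 1 array (adjusted p of 0.0518 to 0.102), with no filter (0.0762), with probe sets averaged (0.0532) or each tested (0.0508), without the variance trend (0.0545) and with the replicate block (0.0507).

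The vehicle cells themselves changed with time in 3 of the 7 genes, where 61.9% of all genes did. Slc7a9 was at 2.55, 2.56 and 3.84 in DMSO cells at 72 h, against 6.76, 5.75 and 5.71 at 6 h (difference -3.09, SE 0.35, adjusted p = 1.2e-06), so that this carrier subunit left the measured range. With values below the array median set to that median the difference was -1.94. Slc16a1 was higher at 72 h by 0.76 (SE 0.14, adjusted p = 0.000146). Slc20a1 was lower at 72 h by 0.62 (SE 0.24, adjusted p = 0.0333), a call lost without DMSO array 1 (-0.31, adjusted p = 0.210) or 2 (-0.51, 0.116) of 72 h or without any 1 DMSO array of 6 h (0.0505 to 0.0875), while without DMSO array 3 of 72 h the difference was -1.04. It was also lost with no filter (0.0605). Atp1b1 passed with arrays centred on their medians (-0.26, adjusted p = 0.00198).

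Aqp1 stood out among the genes that were too low to be tested in cells. It was at 2.10, 2.08 and 2.12 with monuron at 72 h, against 7.84, 7.00 and 3.09 with DMSO at 72 h, and at 2.06 to 2.40 in all 12 arrays of 6 and 24 h. The water channel was thus measured only in 2 vehicle arrays at the last time. Its second probe set averaged 2.36 ± 0.04 with monuron and 4.21 ± 1.65 with DMSO at 72 h (SD, n = 3 each), above the median on 2 of the 3 DMSO arrays. As the monuron values are at background and the third DMSO array is too, no size or test is given for this difference. The window before the start of Aqp1 is shown because the gene passed the test in liver (RefSeq, GRCr8, chr4:85812534-85812783, plus strand, with the TATA motif on the strand of the gene in capitals, starting 30 bases before it).
Aqp1: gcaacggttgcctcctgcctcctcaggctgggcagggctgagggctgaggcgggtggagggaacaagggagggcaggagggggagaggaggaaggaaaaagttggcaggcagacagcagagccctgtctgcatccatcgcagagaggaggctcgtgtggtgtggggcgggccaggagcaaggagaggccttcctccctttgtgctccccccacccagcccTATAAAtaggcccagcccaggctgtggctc

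**Figure D5:**
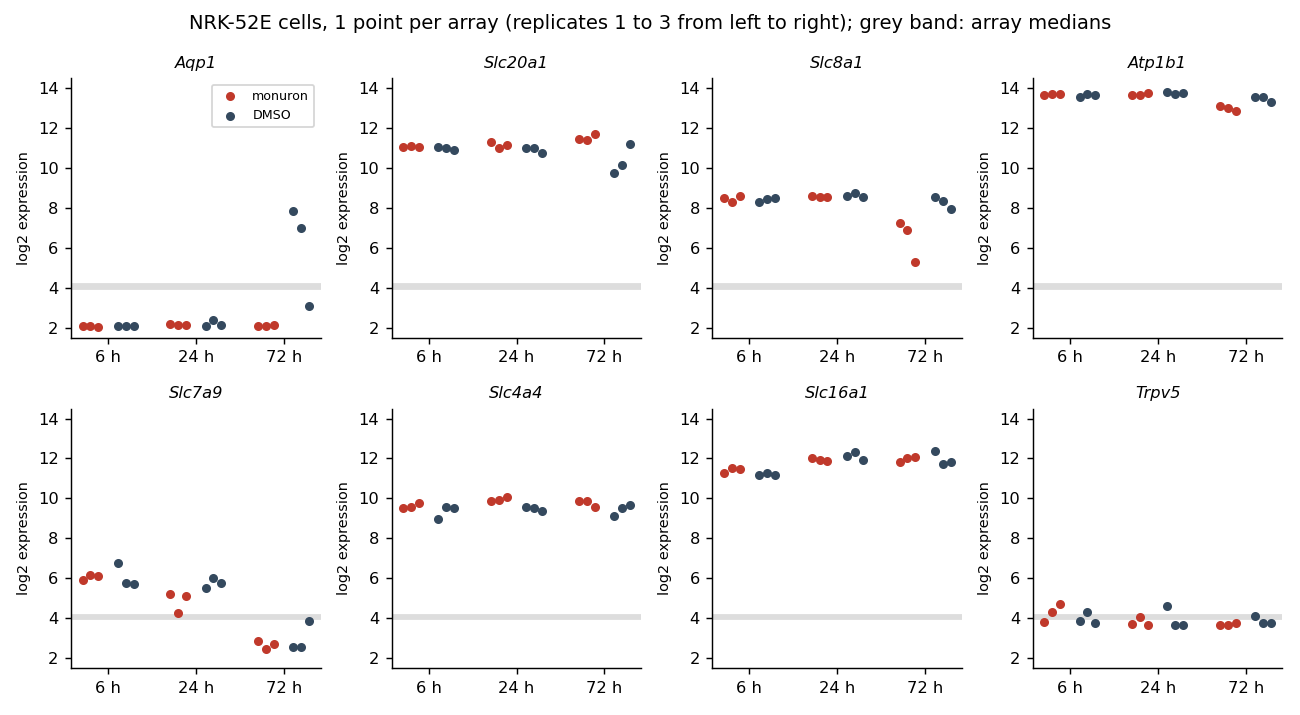
Log2 expression in NRK-52E cells of the 8 transport genes that lay above the array median on at least 1 array. Each point is 1 array (3 with monuron, left, and 3 with DMSO, right, at each time), and the grey band spans the array medians, 3.96 to 4.18. Aqp1 lies above the band on 2 of 3 DMSO arrays at 72 h, and Slc7a9 lies below it at 72 h with both.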

How the data were processed

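Log2 expression values had been made by the authors with GCRMA, per the submitters' processing notes, which do not give a version, and were used as deposited. The table held 31099 probe sets, 57 of them controls. Of the others 20826 had 1 gene symbol, 436 had several and 9780 had none, and only those with 1 symbol were used. Of several probe sets of a gene, the brightest on average, over the arrays in that fit, stood for the gene. A gene was tested if the number of arrays on which it exceeded the array median reached the size of the smallest group. The tests were limma 3.58.1 in R 4.3.3 (moderated, with a mean-variance trend, two-sided, Benjamini-Hochberg over all genes tested): 8 kidney arrays, 8 liver arrays, all 16 tissue arrays with an interaction, and 18 cell arrays in 6 groups. The procedure was tested on simulated data.

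The genes and 11 further lists were chosen with earlier results of these data known. All members are named, and from each list up to 4 genes with the smallest adjusted p, with cell type markers where a level is given. Replicate numbers paired the cell arrays only in part. Same-numbered arrays gave correlations of 0.491, 0.197 and 0.29 at 6 h, where unlike numbers reached 0.301. The values at 72 h were 0.205, 0.167 and 0.317, where unlike numbers reached 0.275. The best match had the same number for 4 of 6 arrays at 6 h, and likewise at 72 h. It did for 0 of 6 at 24 h, and for 0 of 8 kidneys and 0 of 8 livers between monuron and control rats. Alternatives changed the filter, the probe set rule, the scaling, the variance model, the block and each array. Slc6a19 and Trpm6 were not analysed here.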

Additional observations from a re-analysis of the deposited data

Results flagged for a closer look

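A single sample lay far from its group in 5 of 104 groups of 4 arrays examined for transport genes in tissue. Chance alone gives about 5% of groups such a sample. Slc20a1 was at 10.95 in control kidney 3, with the next at 10.68, and Slc15a1 at 8.72 in control kidney 2, with the next at 9.23. Atp1b1 was at 9.34 in monuron liver 4, with the next at 8.96, and at 8.83 in control liver 4, with the next at 9.33. Slc2a2 was at 13.33 in control liver 3, with the next at 13.73.

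The treatment difference itself differed between kidney and liver for Slc13a3 (kidney minus liver 1.08) and Aqp1 (-2.08). For Aqp1 the control livers lay close to background, so the size is not reliable. For Slc6a18 the same test gave 0.96, but all 8 livers lay below the array median, so this value restates the kidney difference and shows nothing of liver. It differed between 72 h and 24 h in NRK-52E cells for Slc20a1 (72 h minus 24 h 0.91), Slc8a1 (-1.76) and Atp1b1 (-0.40). The tests of these differences stand with the comparisons above.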

How the results depend on the processing

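No difference of a transport gene changed sign after passing the test. In kidney, with 974 genes and 3 transport genes called, the replicate block gave 350 and 1, and leaving out control rats 1 and 4 gave 141 and 1. Under the block the adjusted p was 0.0702 for Slc3a1 and 0.0692 for Slc6a18, but the kidneys of equal number did not deviate together, and rats share only a number. With no filter Slc3a1 was at 0.0554. In liver, with 292 genes and 2 transport genes, the genes called were 95 with no filter, 191 with arrays centred, 117 without the variance trend and 40 with the replicate block, and 1 transport gene was called with no filter, with probe sets averaged, without the trend and with the block. In cells at 72 h 12 of 38 transport genes were called with no filter. As 30 of the 38 lay below the median on every cell array, these calls include differences at background, which have no reliable size. Without both arrays of replicate 3, 5 of 8 were called. The shares of all genes under these settings are not given here, so neither count is read as a result on transport genes. At 24 h 1 was called with low values set to the array median. In the 6 arrays of that time alone 2 of 6 were called, where 3217 of 8873 genes were. Those 6 arrays gave 1375 genes at 6 h, 3217 at 24 h and 3706 at 72 h, and the replicate block of time and number gave 1030 at 6 h. With the 40th percentile as the limit, 8 transport genes were above it in DMSO cells at 72 h. The causes were not tested. Besides these, the block lost Slc26a1 in liver (adjusted p = 0.111), Slc6a18 for kidney minus liver (0.0721, with rat number as the block across organs) and Slc20a1 for 72 h minus 24 h (0.0507), and changed no other call on a transport gene. Between the organs, 8 of 8 monuron and 7 of 8 control arrays correlated best with their own number, but not every same-numbered pair passed 0.1 (0.0592 to 0.158 for monuron, 0.0208 to 0.142 for controls), so a shared rat is a hint from the data and not from the labels; with the block 193 genes and 2 transport genes differed between organs, against 271 and 3. With no filter Slc26a1 in liver was at 0.0554, and without the variance trend at 0.0567.

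With each array left out in turn, genes called ranged from 371 to 935 in kidney, 37 to 508 in liver, 154 to 501 for kidney minus liver, 103 to 1188, 461 to 2060 and 4836 to 5996 in cells at 6, 24 and 72 h, 5080 to 5860 for DMSO at 72 h minus 6 h and 2782 to 4426 for 72 h minus 24 h. Transport genes called ranged from 1 (without control rat 3) to 7 (without control rat 2) in kidney, 0 to 3 in liver, 1 to 3 for kidney minus liver, 0 to 0, 0 to 2 and 3 to 5 in cells at 6, 24 and 72 h, 2 to 4 for DMSO over time and 2 to 5 for 72 h minus 24 h. Values below the array median have no reliable size, and 4 or 3 arrays a group limit what smaller differences can be found.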

Other observations

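In liver 2 of 26 other tubule transporters tested fell with monuron and 0 rose, where 3.12% of all genes changed. Slc17a3, a urate and organic anion carrier, was at 11.04, 10.99, 11.17 and 11.15 in monuron livers, against 11.97, 11.75, 11.87 and 11.60 in control livers (difference -0.71, limma adjusted p = 0.00868), and its relative Slc17a1 differed by -0.58 (adjusted p = 0.0285). Of 24 regulators 1 rose. This was Nr3c1, the glucocorticoid receptor, at 11.90, 11.71, 11.87 and 11.52 in monuron livers and 11.02, 11.03, 11.20 and 11.26 in control livers (difference 0.63, adjusted p = 0.0228). The groups were apart for Slc17a3 and Nr3c1.

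In NRK-52E cells at 72 h, 5 of 15 other tubule transporters tested rose and 4 fell. Slc3a2, the heavy chain 4F2hc of several amino acid exchangers, was at 13.55, 13.64 and 13.82 with monuron, against 11.00, 11.18 and 12.42 with DMSO (difference 2.14). Slc7a7, its light chain y+LAT1, was at 5.21, 4.71 and 5.65 with monuron, against 2.37, 2.30 and 2.43 with DMSO, which is background. The anion exchanger Slc4a2 fell by 1.74, and the potassium-chloride cotransporter Slc12a4 rose by 1.01. Of 13 regulators 4 rose and 6 fell, among them Nherf1, a scaffold of brush border carriers (-1.88), and the receptor Fgfr1 (-2.29). At this time 61.6% of all genes tested changed in the cells.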
